A study of Arabidopsis thaliana with 6 samples.

Results

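The genes described here encode the nuclear-made parts of the photosynthetic light reactions and the small subunit of Rubisco. They were given as a fixed list of locus codes, 48 of the 27444 protein-coding nuclear genes of Arabidopsis thaliana, and all 48 matched the gene table. The list holds 21 antenna genes (LHCB and LHCA), 11 photosystem II genes (PSB), 12 photosystem I genes (PSA) and 4 Rubisco small subunit genes (RBCS). A gene was counted for a list of peaks when a peak summit lay inside it or up to 3000 bp from either of its ends. The rule names genes by locus code and not by a measured value, but the list was drawn up with earlier results of these data known.

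Antenna proteins bind chlorophyll and carotenoids and pass the absorbed energy to both photosystems. Photosystem II splits water, photosystem I reduces ferredoxin, and Rubisco fixes carbon dioxide with the small subunit as its nuclear-encoded part. In darkness these genes are kept low while the seedling lives as an etiolated plant with undeveloped plastids, and light turns many of them on. PIF1 (phytochrome-interacting factor 1) belongs to the basic helix-loop-helix family, represses light responses in the dark and is degraded once phytochrome perceives light.

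The PIF1 group was seedlings that overexpress PIF1 carrying a Myc epitope tag (P1M). The control group was wild-type (WT) seedlings, which hold no tag and were taken through the same precipitation with an anti-Myc antibody. All seedlings were whole, 3 d old and dark-grown at 21 °C, after 3 h of white light to induce germination. Each group had 3 libraries, and each library pooled 4 precipitations from 2 biological replicates. The promoter that drives the transgene and the number of lines are not given in the sources used here, and binding was measured at a raised PIF1 level.

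Each of the 3 peak lists set 1 PIF1 library against the WT library of the same number, and the lists held 4578, 12776 and 7678 peaks (lists 1, 2 and 3). The caller kept 5721184 to 14209334 tags of the PIF1 libraries and 6134032 to 17323572 of the WT libraries once duplicates over its limit were dropped. The dropped share in lists 1, 2 and 3 was 13%, 70% and 66% for PIF1 and 24%, 61% and 15% for WT. The lists differed in yield, so each count of genes is read against the share of all genes in the same list. Overlapping peaks of at least 2 lists formed 4845 consensus regions, of which 1390 held peaks of all 3 lists. Fold enrichment is the authors' ratio of tags at a peak to the local WT background, and its place in its own list is given as a percentile, where 100 is the highest. The false discovery rate (FDR) that the peak caller gave was 100% for every peak of list 1 and for 82.5% of list 3. In list 2 its median was 41.2%, and 1350 of the 12776 peaks had an FDR of 5% or less. The presence of a peak in several lists is therefore the main evidence used.

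Taken as 1 set, the photosynthesis genes had consensus regions about as often as other genes. Regions of all 3 lists were more frequent, with 5 of the 8 genes that had one in photosystem II, and the shares varied among the 4 groups. A consensus region lay inside or within 3000 bp of 15 of the 48 genes (31.2%), against 30.0% of all genes. It did so for 5 of 11 photosystem II genes (45.5%), 3 of 12 photosystem I genes (25.0%), 4 of 21 antenna genes (19.0%) and 3 of 4 Rubisco genes (75.0%). A region held by all 3 lists lay beside 8 of the 48 (16.7%), against 9.51% of all genes. Of these 8 genes, 5 were of the 11 for photosystem II, 2 of the 21 for the antenna (9.52%), 1 of the 4 for Rubisco and 0 of the 12 for photosystem I. All 5 photosystem II genes with a consensus region thus had one in all 3 lists. The groups are small and are whole fixed lists rather than samples, so these shares are descriptions and the differences between groups were not tested.

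**Figure D1:**
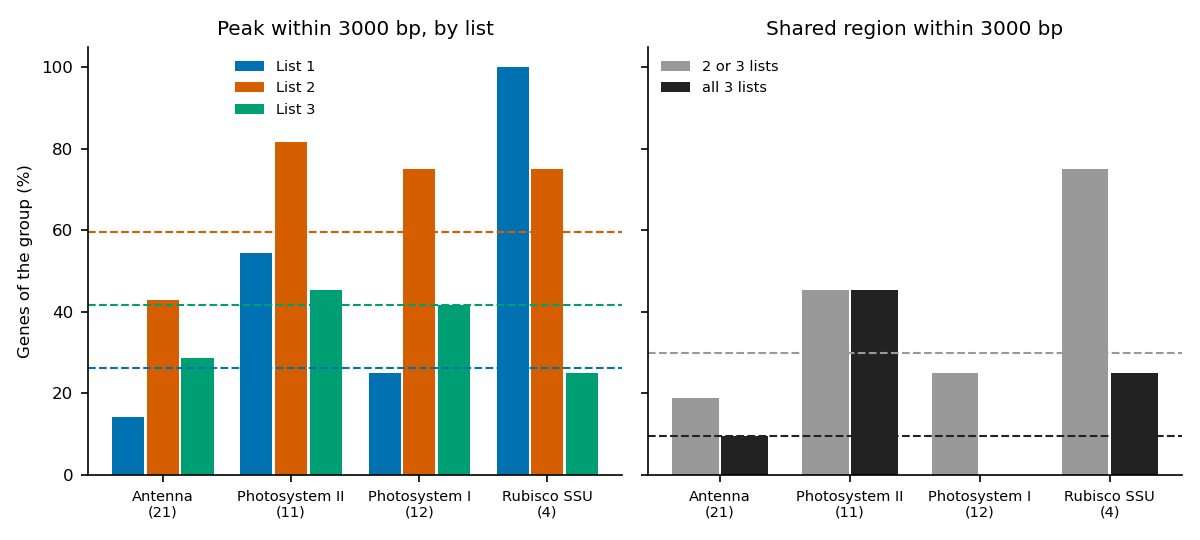
Share of the genes of each group (%, y axis; number of genes in brackets) with a peak within 3000 bp in each of the 3 lists (left) and with a region shared by 2 or 3 lists, or by all 3 lists (right). Dashed lines give the same share of all 27444 genes in the matching colour; antenna bars stand below the line of their own list in all 3 lists, while photosystem II bars stand above it, in list 3 by little (45.5% against 41.6%).

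In the single lists, antenna genes had peaks less often than all genes, and photosystem II genes more often in lists 1 and 2. A list 1 peak lay in the window of 3 antenna (14.3%), 6 photosystem II (54.5%), 3 photosystem I (25.0%) and 4 Rubisco genes (100%), against 26.3% of all genes. A list 2 peak lay in that of 9 antenna (42.9%), 9 photosystem II (81.8%), 9 photosystem I (75.0%) and 3 Rubisco genes (75.0%), against 59.5%. A list 3 peak lay in that of 6 antenna (28.6%), 5 photosystem II (45.5%), 5 photosystem I (41.7%) and 1 Rubisco gene (25.0%), against 41.6%. Antenna genes were below the share of all genes in 3 of 3 lists. Photosystem II genes were above it in lists 1 and 2 and close to it in list 3, while the Rubisco genes went from above to below it. The mean over lists was 28.6% ± 14.3 (SD, n = 3) for antenna genes, 60.6% ± 18.9 (SD, n = 3) for photosystem II genes and 47.2% ± 25.5 (SD, n = 3) for photosystem I genes, against 42.5% ± 16.6 (SD, n = 3) for all genes. The SD carries the difference in length of the lists, and with 3 lists an exact two-sided test of a paired difference cannot go below p = 0.25, so no test was made.

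Where a gene had a peak, the highest one was stronger for photosystem II than for photosystem I genes in the median of each list. The highest peak of each photosystem II gene had a median fold enrichment of 5.26 in list 1 (6 genes), 12.6 in list 2 (9 genes) and 8.24 in list 3 (5 genes). The list 2 median was the value of PSBY, whose peak overlapped none of another list and lay 2169 bp from the gene. The photosystem I medians were 2.39, 5.49 and 3.63 (3, 9 and 5 genes), below the 2.77, 5.87 and 4.03 of all genes with a peak. As percentiles within their lists, the photosystem II medians stood at 93.3, 93.3 and 94.0, those of photosystem I at 30.8, 53.8 and 41.6, and those of antenna genes at 78.9, 61.4 and 32.9. All genes with a peak had medians of 53.7, 60.8 and 56.4. The windows of photosystem II genes also held more peaks, with a mean of 3.00 per gene against 1.92 for photosystem I and 1.85 for all genes, and a highest value rises with the number of peaks. Over every distinct peak in the windows, the medians were 5.22, 6.31 and 7.86 in lists 1, 2 and 3 for photosystem II and 2.39, 5.05 and 3.52 for photosystem I, against 2.74, 5.29 and 3.87 for all genes. Counted this way, the list 2 difference was thus much smaller than between the highest peaks. Of the distinct peaks around photosystem I genes, 6 of 23 belonged to a consensus region (26.1%), against 19 of 33 around photosystem II genes (57.6%) and 47.2% around all genes.

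**Figure D2:**
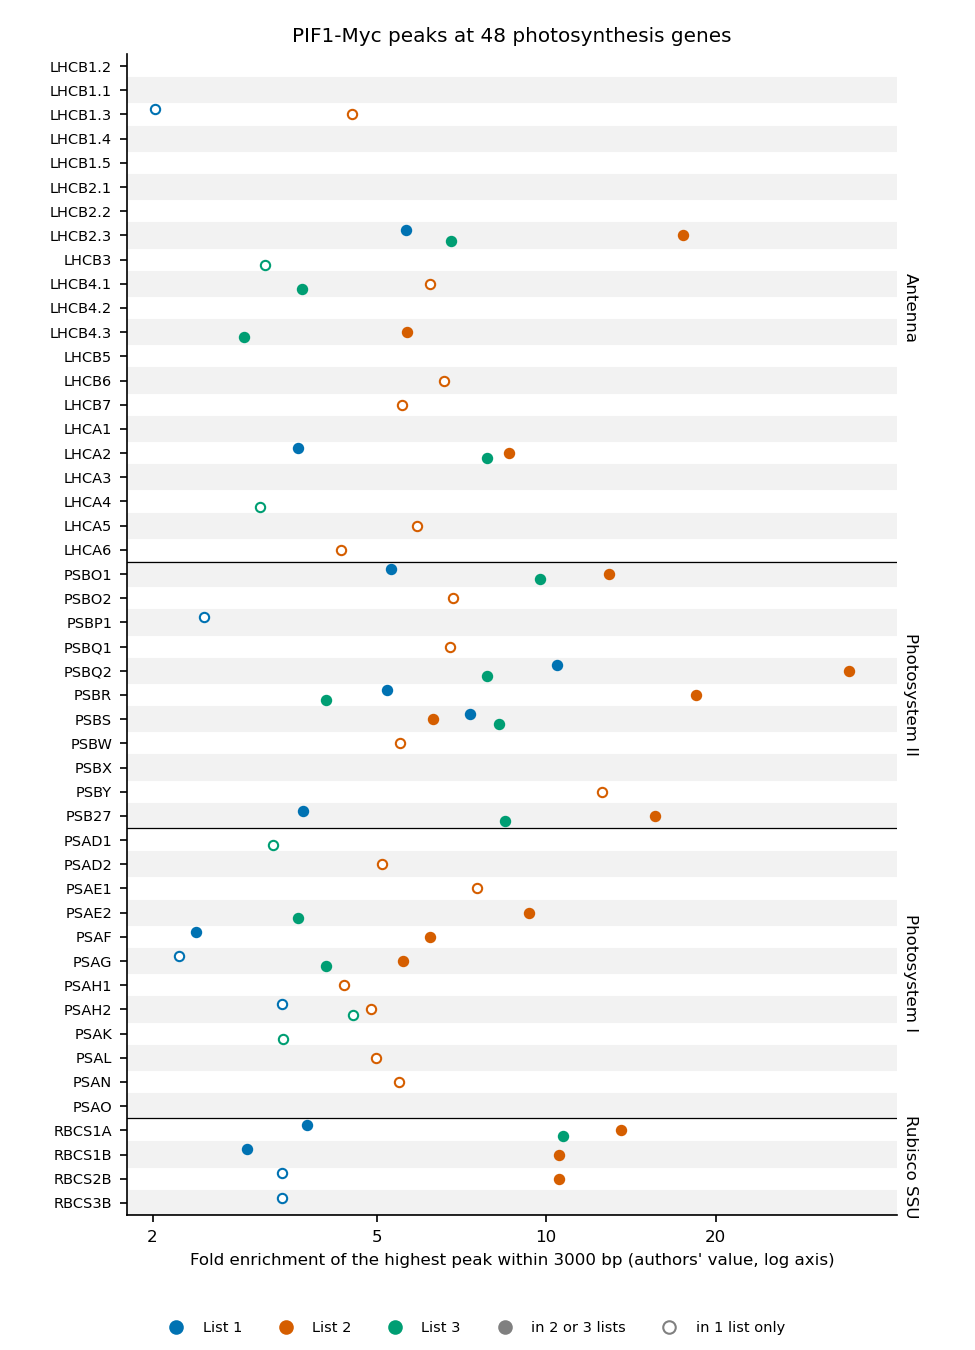
Fold enrichment of the highest peak within 3000 bp of each of the 48 genes (x axis, authors' value, log axis; 1 point per list, filled where that peak belongs to a region of 2 or 3 lists, open where it was in 1 list only). Rows without a point had no peak in the window; the highest value is that of PSBQ2 in list 2 (34.53), and most photosystem I points are open and all of them lie below 10.

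The photosystem II genes with regions of all 3 lists were PSBQ2, PSBS, PSB27, PSBR and PSBO1, while PSBO2, PSBP1 and PSBQ1, for the same extrinsic proteins or another of them, had none within the window. PSBQ2 (AT4G05180) encodes an extrinsic subunit of the oxygen-evolving complex. Its peaks were the highest of all 48 genes in lists 1 and 2, in a region at chromosome 4, 2672701 to 2673802 (TAIR10), with fold enrichments of 10.47, 34.53 and 7.86 from 320, 255 and 165 tags in lists 1, 2 and 3. The summits lay 119 to 178 bp outside the gene, and PSBQ2 was the nearest gene. In lists 1 and 2 these peaks were at the 99.7 percentile, and in list 3 at 93.2. Its paralog PSBQ1 (AT4G21280) had 1 peak, in list 2 alone (6.74, summit 36 bp outside), and its nearest consensus region was 19633 bp away.

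PSBS (AT1G44575, NPQ4 in the gene table) encodes the pH sensor of energy-dependent quenching, which sheds excess light energy as heat. Peaks of all 3 lists lay inside the gene at chromosome 1, 16871377 to 16872053, with summits within 47 bp of each other. The fold enrichments were 7.34, 6.31 and 8.24 from 156, 113 and 90 tags, at percentiles of 98.2, 66.5 and 94.0. The list 2 value was thus the weak one here, where for the other genes with regions in all 3 lists, apart from the second region of LHCA2, it was the highest of the 3. PSBS was the sole gene within 3000 bp of this region.

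PSB27 (AT1G03600) encodes a lumenal factor for assembly and repair of photosystem II. It had 3 consensus regions in its window, as many as any member. A region of all 3 lists lay over the gene at chromosome 1, 897220 to 899455 (fold enrichments 3.7, 7.02 and 4.13), with its summits inside the gene. A stronger region beside the gene, at 899598 to 901660, had summits 163 to 172 bp outside and was found in lists 2 and 3 (15.58 and 8.47, percentiles 96.0 and 94.3) and not in list 1. The third, 1992 bp away at 896045 to 896818, had 4.75 and 3.48 in lists 2 and 3 and lay inside AT1G03590.

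The regions of PSBR and PSBO1 lay farther off and nearer to other genes. PSBR (AT1G79040), for a small subunit that helps to hold the extrinsic proteins, had a region at chromosome 1, 29733995 to 29734958, with fold enrichments of 5.22, 18.48 and 4.07 from 209, 157 and 112 tags. It lay 1412 bp from PSBR and 96 bp from AT1G79030. PSBO1 (AT5G66570) encodes the manganese-stabilising protein of the oxygen-evolving complex. Its region at chromosome 5, 26571939 to 26575560, was wide and held 5 peaks, with 5.31 in list 1, 12.92 and 24.25 in list 2 and 9.76 and 5.56 in list 3. The summits of the 24.25 and 5.56 peaks lay beyond the 3000 bp window of PSBO1. The region's mean summit was 2546 bp from PSBO1 and inside AT5G66580, and the summits nearest to PSBO1 were 1841 to 1849 bp away in the 3 lists. A list 2 peak lay closer, 30 bp from PSBO1 (6.47), and had no partner in another list.

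The remaining photosystem II genes had peaks of 1 list or no peak. PSBO2, the second gene for the manganese-stabilising protein, had 2 list 2 peaks (6.84 inside and 3.07), and a region of all 3 lists lay just beyond the window at 3058 bp (1.94, 7.31 and 4.18). PSBP1, for another extrinsic subunit, had 1 peak, in list 1 (2.47). PSBW and PSBY, for small membrane subunits, had 2 list 2 peaks each, of which the highest was 12.59 at PSBY. PSBX had no peak in any list, and its nearest consensus region was 26830 bp away.

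**Figure D3:**
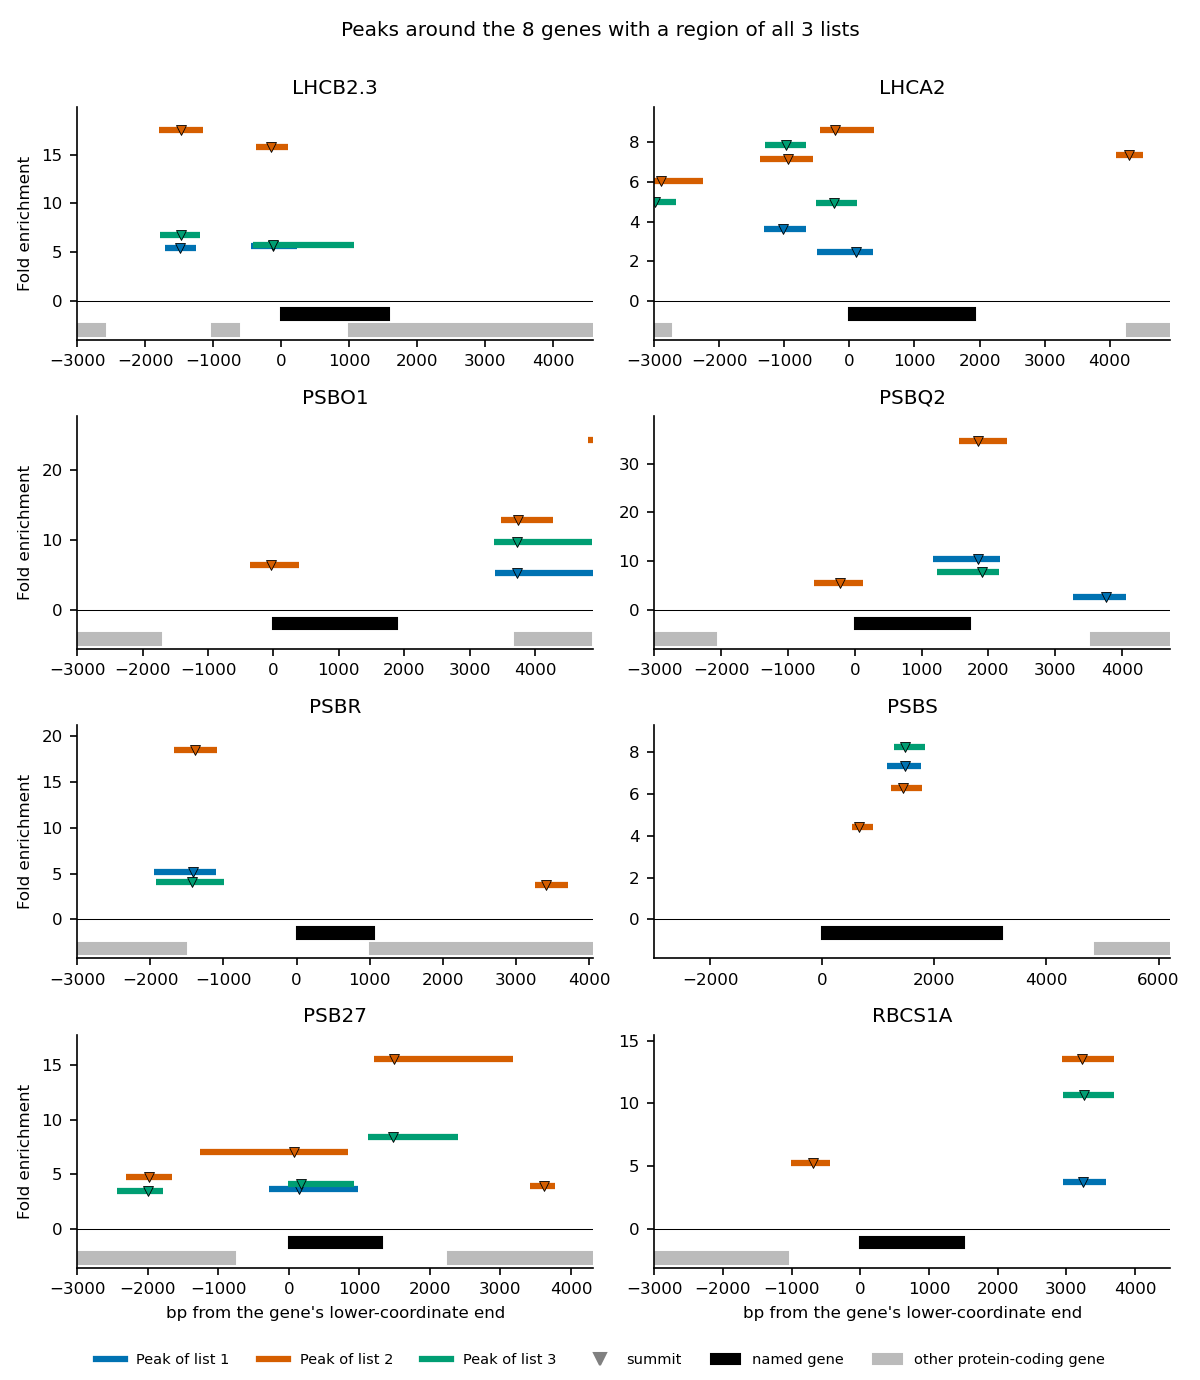
Peaks around the 8 genes with a region of all 3 lists, with the distance from the lower-coordinate end of the gene (bp, x axis) and the authors' fold enrichment (y axis); horizontal bars are peaks, triangles their summits, black boxes the named gene and grey boxes other protein-coding genes. The 3 summits of a region stack within 59 bp at PSBQ2, PSBS, PSBR, RBCS1A and LHCB2.3. PSBO1 and PSBR have their shared peaks beside a neighbouring gene. Strand is not shown.

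Consensus regions lay beside 3 of 12 photosystem I genes (25.0%), close to the 30.0% of all genes, and each was held by 2 lists. PSAE2 (AT2G20260), for a stromal subunit of the ferredoxin-docking side, had a region at its end, with 9.32 in list 2 (summit 18 bp outside) and 3.63 in list 3 (summit inside). The list 2 peak was the strongest of the group, at the 86.2 percentile of its list. PSAG (AT1G55670), for a membrane subunit next to the antenna, had one 385 bp away (5.56 in list 2 and 4.06 in list 3) that lay inside AT1G55675, and an unshared list 1 peak (2.23) 1951 bp away. PSAF (AT1G31330), for the plastocyanin-docking subunit, had one 1724 bp away (2.39 in list 1 and 6.22 in list 2). The latter region lay 6 bp from LBD4, so 1 of the 3 regions had the photosystem I gene as its nearest gene. PSAH2 had peaks of all 3 lists in its window (3.4, 4.89 and 4.54 at most), yet they did not overlap and formed no consensus region.

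Peaks of a single list were found at PSAD1, PSAD2, PSAE1, PSAH1, PSAK, PSAL and PSAN, 7 of 12 genes (58.3%), against 32.8% of all genes with peaks of exactly 1 list. Their fold enrichments went from 3.27 (PSAD1, list 3) to 7.55 (PSAE1, list 2). PSAO had no peak. Of the pairs of genes for 1 subunit, PSAE2 had a consensus region and PSAE1 had none. PSAD1 had its peak in list 3 and PSAD2 in list 2, and neither had a consensus region, nor had PSAH1 or PSAH2.

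Antenna genes were the group with the most empty windows, and LHCB2.3 and LHCA2 stood out from it. No peak of any list lay in the window of 10 of 21 antenna genes (47.6%), against 26.7% of all genes, 1 of 11 photosystem II genes and 1 of 12 photosystem I genes. The 10 were LHCB1.1, LHCB1.2, LHCB1.4, LHCB1.5, LHCB2.1, LHCB2.2, LHCB4.2, LHCB5, LHCA1 and LHCA3. These hold most of the genes for LHCB1 and LHCB2, the main trimeric light-harvesting proteins of photosystem II. Their nearest consensus regions were 5739 (LHCA1) to 61708 bp (LHCB2.2) away. Among the 10, LHCB1.1 and LHCB1.2 lie 1153 bp apart, and LHCB1.4 and LHCB1.5 lie 1038 bp apart. The windows within each pair overlap, so their empty windows are not separate observations.

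LHCB2.3 (AT3G27690) was the exception within its family. It had regions of all 3 lists on the same side, 133 bp and 1478 bp away. The nearer one, at chromosome 3, 10255453 to 10256971, had fold enrichments of 5.65, 15.77 and 5.68 from 218, 174 and 222 tags. The farther one, at 10254113 to 10254753, had 5.4, 17.5 and 6.79 and was nearer to AT3G27680 (458 bp). In both, the list 1 and list 2 values stood at percentiles of 93.8 to 97.2 of their lists. Those of list 3 stood lower, at 83.9 in the nearer region and 89.7 in the farther one. LHCB2.1 and LHCB2.2, which encode near-identical proteins, had their nearest consensus regions 37700 and 61708 bp away.

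LHCA2 (AT3G61470), for an antenna protein of photosystem I, had 3 consensus regions, of which 2 were held by all 3 lists and had LHCA2 as the nearest gene. At chromosome 3, 22744999 to 22745890, 114 bp away, the fold enrichments were 2.46, 8.6 and 4.91, at percentiles of 35.7, 83.1 and 76.2. At 22744133 to 22744948, 980 bp away, the fold enrichments were 3.63, 7.16 and 7.86, at percentiles of 78.9, 74.7 and 93.2. In the first region the summit of list 1 lay inside the gene and those of lists 2 and 3 lay 215 and 232 bp outside. The third, of lists 2 and 3 (6.07 and 4.98), lay 2944 bp away and inside BRH1.

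The other antenna genes had weaker or unshared peaks. LHCB4.1 and LHCB4.3, for minor monomeric antenna proteins, had consensus regions of lists 2 and 3 at 2556 and 1504 bp (5.32 and 3.68, 5.66 and 2.91), each nearer to another gene, AIRP2 and AT2G40095. LHCB4.1 also had an unshared list 2 peak 65 bp away (6.22). LHCB3, LHCB6, LHCB7, LHCA4, LHCA5 and LHCA6 had peaks of 1 list, with maxima from 3.1 (LHCA4, list 3) to 6.6 (LHCB6, list 2). LHCB1.3 had unshared peaks of lists 1 and 2 (2.02 and 4.52), which both lay nearer to AT1G29940.

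The Rubisco genes lie at 2 loci, and their counts rest on 2 consensus regions. RBCS1A (AT1G67090) had a region of all 3 lists at chromosome 1, 25051092 to 25051847, with fold enrichments of 3.76, 13.57 and 10.71 from 128, 197 and 144 tags. Its summits lay within 30 bp of each other and 1736 bp on average from RBCS1A, which was still the nearest gene. RBCS1B, RBCS2B and RBCS3B stand side by side on chromosome 5. A region between RBCS2B (113 bp) and RBCS1B (983 bp), at 15381809 to 15382486, was counted for both, with 2.94 in list 1 and 10.53 in list 2 and no list 3 peak. RBCS3B had a list 1 peak inside the gene (3.39), which also lay in the window of RBCS2B.

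The tandem antenna and Rubisco copies limit what an empty window shows. LHCB1.1, LHCB1.2 and LHCB1.3, LHCB1.4 and LHCB1.5, and the 3 RBCS genes of chromosome 5 follow each other with no other gene between, and LHCB2.1 and LHCB2.2 also encode near-identical proteins. Tags were 47 bp long, and how tags that match several copies were treated is not given in the sources used here. Whether such tags were lost at these genes was not tested, and the absence of a peak there is uncertain.

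Distances, which need no window, placed photosystem II genes nearer than all genes both to consensus regions and to regions of all 3 lists, and Rubisco genes nearer to consensus regions. The median distance from a gene to its nearest consensus region was 1360 bp for Rubisco genes, 3058 bp for photosystem II genes, 10870 bp for antenna genes and 11760 bp for photosystem I genes. The median over all genes was 7203 bp. RBCS1B, RBCS2B and RBCS3B had the same nearest consensus region (983, 113 and 3542 bp away), so the Rubisco median rests on 2 regions. For regions of all 3 lists, the medians were 3058 bp for photosystem II, 25890 bp for Rubisco, 29090 bp for photosystem I and 38970 bp for antenna genes, against 27650 bp for all genes. Within photosystem II the range was still wide, from inside the gene (PSBS and PSB27) to 33757 bp (PSBP1). The genes of the list were short, with a median length of 1412 bp against 2078 bp for all genes, which leaves a shorter window for a region to fall in.

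**Figure D4:**
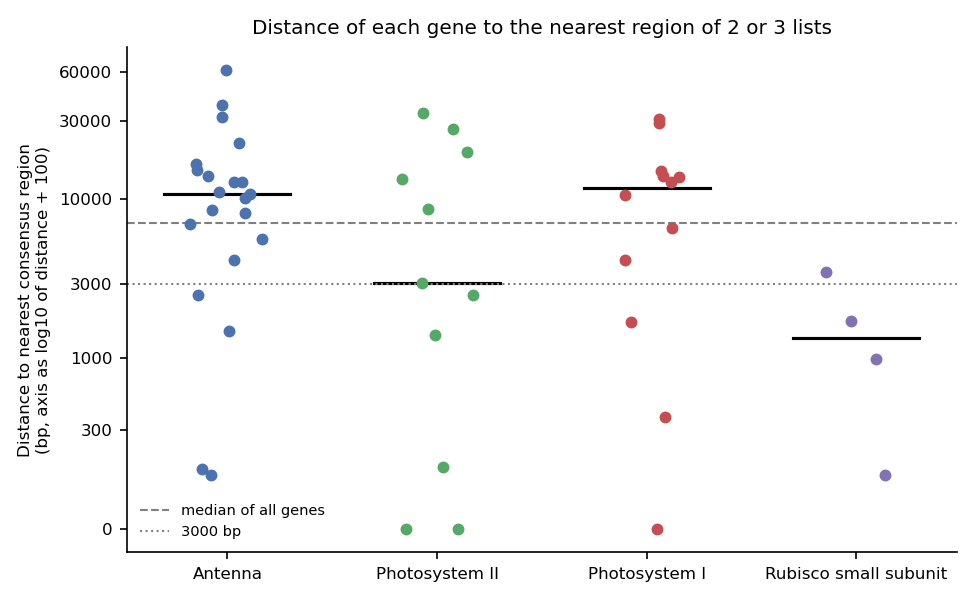
Distance from each of the 48 genes to its nearest region of 2 or 3 lists (bp, y axis drawn as log10 of the distance + 100; 0 is a region inside the gene), by group. Points are genes and black bars group medians (3058 bp for photosystem II, 11760 bp for photosystem I); the dashed line is the median of all genes (7203 bp) and the dotted line the 3000 bp window.

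Just inside the window lay the regions of PSBO1 (2546 bp) and LHCB4.1 (2556 bp), and just outside it those of PSBO2 (3058 bp) and RBCS3B (3542 bp), followed by PSAH2 (4226 bp) and LHCB6 (4230 bp). With a window of 1000 bp, a region of all 3 lists lay beside 3 photosystem II genes (PSBQ2, PSBS and PSB27), 2 of 21 antenna genes (9.52%; LHCB2.3 and LHCA2) and 0 photosystem I or Rubisco genes, against 5.03% of all genes. Of the 20 pairs of a gene and a consensus region, 3 had the region inside the gene, 8 up to 1000 bp away, 6 from 1000 to 2000 bp and 3 beyond. These are 15.0%, 40.0%, 30.0% and 15.0%, against 17.5%, 34.5%, 23.1% and 24.9% of such pairs over all genes. A photosynthesis gene was the nearest gene of at least 1 consensus region in 8 of 48 cases (16.7%), against 14.9% of all genes.

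A low FDR in list 2 was found at most of the genes with a region of all 3 lists. In list 2, where the FDR column reached low values, peaks with an FDR of 5% or less lay in the windows of 7 of the 48 genes (14.6%), against 9.37% of all genes. They were LHCB2.3, LHCA2, PSBO1, PSBQ2, PSBR, PSB27 and RBCS1A, with the lowest FDR at each from 0.88% (PSBQ2) to 2.1% (PSBR). These are 7 of the 8 genes with a region of all 3 lists, and this FDR shares its tags with the list 2 peaks that define those regions. The eighth, PSBS, had an FDR of 33.18% in list 2.

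Other photosynthesis genes, a fixed list of 34 for electron transport, ATP synthase, antenna regulation and the Calvin cycle, had consensus regions in 12 cases (35.3%) and regions of all 3 lists in 3 (8.82%), against 30.0% and 9.51% of all genes. The 3 were electron transport genes. PETC (AT4G03280), for the Rieske protein of the cytochrome b6f complex, had one 258 bp from its end on chromosome 4, 1439464 to 1440619 (4.08, 23.39 and 6.6). PETE2, a plastocyanin gene (DRT112 in the gene table), had one 1314 bp away (4.59, 8.08 and 4.1), and FNR2, for ferredoxin-NADP reductase, one 1916 bp away (3.99, 5.43 and 4.56), both nearer to another gene (AT1G20330 and AT1G20030). PETE2 also had a region of lists 1 and 2 at 29 bp (1.73 and 4.09). By class, consensus regions lay beside 3 of 10 electron transport genes, 1 of 3 ATP synthase genes, 5 of 9 antenna regulation genes and 3 of 12 Calvin cycle genes.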

How the data were processed

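Chromatin immunoprecipitation and sequencing was done on 3 PIF1-Myc and 3 wild-type libraries, grouped by their titles. The submitters' processing notes list MACS 1.4.1, Bowtie 0.12.7 and CASAVA 1.8.0, with TAIR10 as the build. Per the file headers, each list was called on 1 PIF1 library against 1 wild-type library, not on pooled samples, at a p cutoff of 1e-05. The deposited tag count per peak is unscaled, and counting error grows as tags fall. The deposited score is 10 times the negative log10 of the caller's p. The deposited fold enrichment is a ratio of tags to the scaled local wild-type background, and the FDR is a percent, per the file headers.

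An overlap of 1 bp or more joined peaks of different lists into a region, placed at the mean of their summits (start + summit - 1), using Python 3.11.15, pandas 2.3.3 and numpy 2.4.6. The steps were tested on simulated peaks. Gene names and distances rest on a TAIR10.1 gene table, whose coordinates are not printed because the peaks are on TAIR10. Moving all consensus regions by 1000 bp raised the share inside a gene from 35.8% to 51.7%. Strand was not used, and no genome or promoter sequence was used here, so the planned motif search and the window upstream of the start were not run.

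The genes and lists were chosen with earlier results of these data known. Every gene of the list is named, other photosynthesis genes where they had a region of all 3 lists, and further genes where they lay nearer to a region. The 3 libraries of a group are separate preparations that may share seedlings, so their spread may be partly technical. No test was applied, since the genes are a fixed list chosen with earlier results known. No wild-type counts outside of peaks were used here.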

Additional observations from a re-analysis of the deposited data

How the results depend on the processing

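Of 155 recomputed counts, 99 stayed within 1.5 times the value reported and 56 did not. Counts below are given for antenna, photosystem II, photosystem I and Rubisco genes in that order, then for all 48, with the share of all genes under the same setting in brackets, since stricter settings lower both. Consensus regions (4, 5, 3, 3 and 15 as reported; 30.0%) became 2, 3, 2, 2 and 9 with a window of 1000 bp (17.5%) and 2, 3, 1, 2 and 8 when only the nearest gene counted (14.9%). They became 2, 5, 0, 1 and 8 with peaks of at least 5-fold (9.85%), 3, 5, 0, 1 and 9 with scores of at least 100 (16.3%), and 2, 5, 0, 1 and 8 for peaks of all 3 lists (9.51%). For peaks of at least 1 list they became 11, 10, 11, 4 and 36 (73.1%). Photosystem I fell to 1 with summits within 200 bp (26.3%) and to 1 with equal list lengths (19.3%). With tandem copies that share a region counted once, Rubisco became 2 and the total 14, and no share of all genes was computed for this setting. Leaving out 1 replicate at a time gave 2 to 4 antenna, 5 to 5 photosystem II, 0 to 2 photosystem I and 1 to 3 Rubisco genes, and 8 to 12 in all. The share of all genes was 26.1% without replicate 1, 10.5% without replicate 2, where the total was lowest, and 13% without replicate 3. Photosystem II kept 5 of its genes in each of these 3 cases and PSBQ2, PSBS, PSBR, PSBO1 and PSB27 were those genes. These 5 have regions of all 3 lists, so leaving out 1 list still left the 2 that a consensus region needs. The same holds for the 8 genes kept without replicate 2, so their being kept adds no support.

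Regions of all 3 lists (2, 5, 0, 1 and 8; 9.51%), recomputed under alternatives chosen after seeing the data, became 2, 3, 0, 0 and 5 with a window of 1000 bp (5.03%), 1, 3, 0, 0 and 4 with peaks of at least 5-fold (2.07%), and 1, 5, 0, 0 and 6 with scores of at least 100 (4.96%). Photosystem II fell to 3 when only the nearest gene counted (4.6%). Photosystem I stayed at 0 under all 9 of these alternatives, of which only a window of 5000 bp was wider than the setting reported. The others narrow the window or tighten the count, so a 0 that stays 0 under them adds no support. The 16, 30 and 17 genes with a peak in lists 1, 2 and 3 (26.3%, 59.5% and 41.6%) became 10, 23 and 11 within 1000 bp (15%, 40.1% and 25.3%) and 10, 20 and 10 for the nearest gene (13.3%, 33% and 21.8%). They became 5, 25 and 7 at 5-fold (2.3%, 39.7% and 11.4%) and 6, 21 and 10 at a score of 100 (9.39%, 38% and 19.5%), and list 2 fell to 18 with equal list lengths (28.3%). The 12 other photosynthesis genes with a consensus region became, against the same shares, 2 at 5-fold, 5 at a score of 100, 3 for peaks of all 3 lists and 26 for at least 1 list, and 3 to 10 with 1 replicate left out. No paired analysis was possible because each list is already 1 comparison of same-numbered PIF1 and wild-type libraries, and the result comes from no test. Strand, motifs and windows around summits were not analysed here. The cause of these moves was not tested, beyond fewer peaks or genes entering a stricter count.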
